A study of Mus musculus with 33 samples.

Results

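Sphingosine 1-phosphate (S1P) is a lipid signal, and 7 genes that make it, export it, sense it or break it down are described here in cultured enteric neural crest cells and in whole embryonic gut of the mouse. They are Spns2, the receptor genes S1pr1, S1pr2 and S1pr3, the kinase genes Sphk1 and Sphk2, and the lyase gene Sgpl1. The genes were taken through the array annotation: every probe set with exactly 1 gene symbol, where that symbol is one of the 7, which gave 13 probe sets among the 34945 used and 7 genes of 18193. Spns2 was chosen by its difference with GDNF in these same arrays, so its values are a description with no test, and the other genes were taken as members of its pathway.

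Enteric neural crest cells (ENCCs) are the migrating precursors of the neurons and glia of the gut wall, and GDNF is the ligand that signals through the receptor RET on them. ENCCs came from C57BL/6 embryos at day 14.5 that carried the Wnt1-Cre driver and a Rosa26 reporter giving YFP after recombination. YFP-positive cells were sorted and grown on fibronectin in medium with N2, B27, FGF and EGF, so both ENCC groups received these, and the cells of 1 gut were shared between a well with 50 ng/ml GDNF and a well without it. Whole guts, from duodenum to anus, came from wild-type C57BL/6 embryos of the same age, with no culture stated. The labels give no culture time. The comparison within a gut therefore asks what GDNF changes, and the comparison with whole gut asks how cultured ENCCs differ from the tissue. One label field gives ENCCs as the cell type of the whole guts, while their source and description give the dissected gut. All 8 endothelial, all 5 epithelial and all 3 measured erythroid marker genes were higher in whole gut than in untreated ENCCs in the limma fit described further on. So were 4 of 6 macrophage, 3 of 6 smooth muscle and only 1 of 6 mesenchymal markers, while the macrophage marker Adgre1 was lower in whole gut. Of the ENCC markers 3 of 4 measured, and all 5 neuronal markers, were also lower in whole gut. Wnt1-Cre also marks other descendants of the neural crest, and sorting by YFP does not separate neurons, glia and precursors.

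RNA was read on 33 Affymetrix arrays. There were 18 ENCC RNAs from 9 guts, 9 with GDNF and 9 without, and 7 of the 18 were read in both of the batches named in the titles, which gave 25 ENCC arrays. The 8 whole guts were read in batch 2 only. The labels do not say whether guts shared a litter, so the p-values measure the spread between these samples. Correlations over all probe sets between the arrays of 1 RNA in the 2 batches ran from 0.117 to 0.325, with the lowest for the untreated well of gut 3. The deposited values are scores: each array was ranked, and each rank was written as a normal quantile with median 0. A score has no level and no fold, so genes cannot be set against each other by abundance, and 1 unit of score is close to the SD of a probe set among the ENCC arrays. Scores also come from whole cultures or tissue, in which fewer cells of a type and less RNA per cell cannot be told apart.

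Sphingosine is released from ceramide by ceramidases and phosphorylated to S1P by the sphingosine kinases Sphk1 and Sphk2. Spns2, a transporter of the major facilitator superfamily, carries S1P out of cells, where it binds G protein-coupled receptors of the S1pr family. S1P is removed either by phosphatases, which return it to sphingosine, or by the lyase Sgpl1, which splits it irreversibly in the endoplasmic reticulum. Export of S1P by Spns2 is best known from endothelium, and S1P receptors are known for guiding cell movement, vessel growth and the traffic of lymphocytes.

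To show the DNA before the starts of the members whose scores differed, promoter windows were read from RefSeq's table for GRCm38.p6, which held 6 of the 7 genes but not S1pr1. Each window holds 250 bases before the transcription start and 50 after it, 5′ to 3′ on the gene's strand, and where a gene had several windows the most upstream was taken. Spns2 lies on the minus strand at chr11:72451638-72489976 and its window is chr11:72474978-72475277. Its listed start is 14949 bases inside the gene from the gene's 5′ end. S1pr2 is on the minus strand at chr9:20965952-20976793 with the window chr9:20976744-20977043, S1pr3 on the plus strand at chr13:51408618-51422797 with chr13:51408368-51408667, Sphk1 on the plus strand at chr11:116530836-116536675 with chr11:116530850-116531149, and Sgpl1 on the minus strand at chr10:61098642-61147684 with chr10:61147635-61147934. Capitals mark matches on either strand to a CRE (TGACGTCA), AP-1 (TGANTCA), ETS (CCGGAAGT), E-box (CACGTG) or GC box (GGGCGG) motif, which were chosen after sequences had been seen.
Spns2: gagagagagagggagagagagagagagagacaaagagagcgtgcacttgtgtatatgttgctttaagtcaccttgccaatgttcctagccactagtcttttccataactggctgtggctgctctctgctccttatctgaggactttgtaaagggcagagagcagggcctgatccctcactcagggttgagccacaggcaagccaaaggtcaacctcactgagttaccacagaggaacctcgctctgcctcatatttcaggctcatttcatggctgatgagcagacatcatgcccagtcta
S1pr2: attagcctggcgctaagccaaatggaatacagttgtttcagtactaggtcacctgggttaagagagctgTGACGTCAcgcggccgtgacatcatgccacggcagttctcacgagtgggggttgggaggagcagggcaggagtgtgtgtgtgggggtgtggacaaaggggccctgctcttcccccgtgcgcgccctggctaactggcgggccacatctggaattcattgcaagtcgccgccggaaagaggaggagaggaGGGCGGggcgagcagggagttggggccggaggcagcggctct
S1pr3: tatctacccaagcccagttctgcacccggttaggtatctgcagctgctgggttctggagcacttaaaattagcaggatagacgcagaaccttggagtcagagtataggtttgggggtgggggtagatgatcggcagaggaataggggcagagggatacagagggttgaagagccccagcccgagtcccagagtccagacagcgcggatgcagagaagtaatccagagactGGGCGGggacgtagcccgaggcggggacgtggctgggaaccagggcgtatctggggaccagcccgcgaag
Sphk1: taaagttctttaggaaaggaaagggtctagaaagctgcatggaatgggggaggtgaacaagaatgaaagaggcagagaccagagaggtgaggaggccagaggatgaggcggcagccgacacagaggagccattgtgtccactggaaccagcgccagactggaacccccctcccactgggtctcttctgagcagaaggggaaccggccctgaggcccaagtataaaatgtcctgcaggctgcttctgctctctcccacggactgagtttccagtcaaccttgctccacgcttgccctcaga
Sgpl1: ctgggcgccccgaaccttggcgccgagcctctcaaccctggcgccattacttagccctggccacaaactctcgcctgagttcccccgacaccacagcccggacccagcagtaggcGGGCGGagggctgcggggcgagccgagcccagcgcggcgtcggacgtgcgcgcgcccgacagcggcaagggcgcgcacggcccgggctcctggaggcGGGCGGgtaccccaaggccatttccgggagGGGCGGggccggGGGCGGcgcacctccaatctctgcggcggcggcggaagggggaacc

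The windows differed in base composition and in these matches. The Spns2 window lies at a start 14949 bases inside the gene, and the DNA at the gene's 5′ end was not read. That window had 2 CpG and 50.3% G and C, near the median of 52.7% over all 32851 windows. It held none of the 5 motifs. The S1pr2 window held a CRE that begins at base 70, upstream of the start, and 1 GC box, and the S1pr3 window held 1 GC box. The Sgpl1 window had 38 CpG, 75.3% G and C and 4 GC boxes, while the Sphk1 window, the most upstream of 5, held none of the motifs. The Sphk2 window, not printed, held 1 CRE and 1 GC box. Over all windows, 1.79% held the CRE, 7.81% the AP-1 motif, 3.89% the ETS motif, 7.15% the E-box and 35.7% the GC box. A match is a match of letters only, and the absence of one says nothing about binding of a factor.

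Spns2, the S1P exporter, was higher with GDNF in every gut. Over the 9 untreated RNAs its score ran from -2.21 through a median of -0.96 to -0.73, and over the 9 GDNF RNAs from 0.46 through 0.94 to 1.49. Every GDNF RNA was above every untreated RNA, which held for 4.69% of all genes and for no other member. The reverse, every GDNF RNA below every untreated RNA, held for 0.857% of all genes and for no member. The difference in score, GDNF minus untreated, was 3.15, 2.35, 1.82, 1.92, 1.78, 1.39, 2.18, 1.68 and 2.41 in guts 1 to 9, with a mean of 2.08 ± 0.52 (SD, n = 9). The largest was in gut 1 and the smallest in gut 6. The mean was 1.97 over the 8 guts of batch 1 and 2.20 over the 4 guts of batch 2. The single probe set of Spns2 had a correlation of 0.79 between batches over the 7 RNAs read in both. These values chose the gene and support nothing further.

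**Figure D1:**
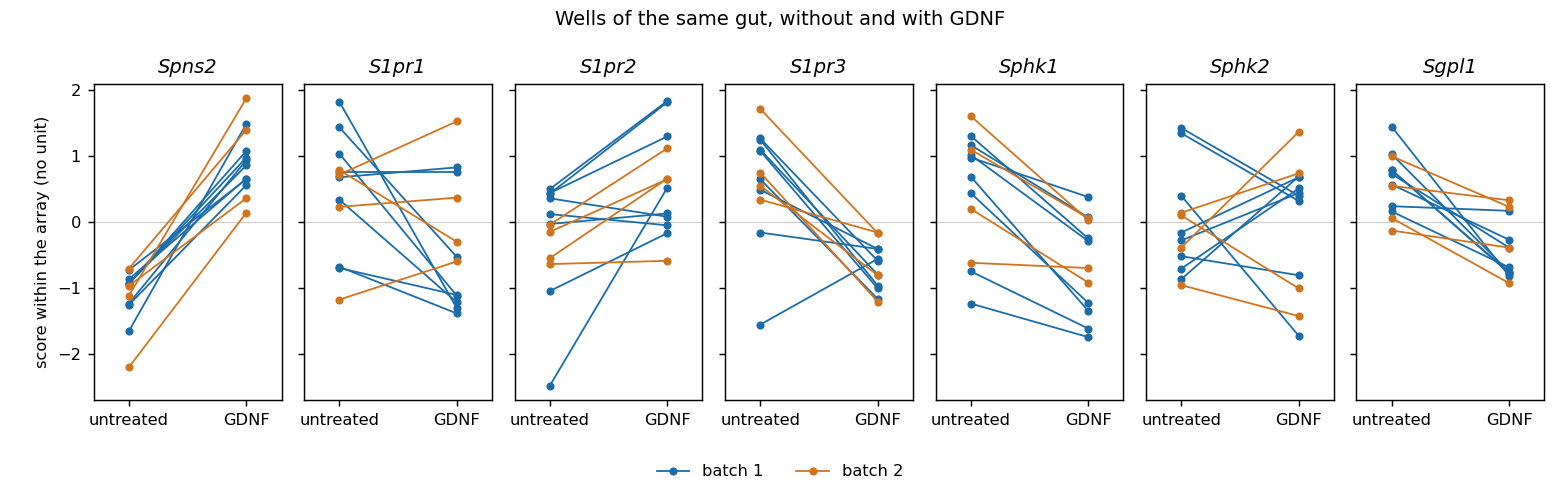
Score within the array (no unit) of each gene in the untreated and the GDNF well of the same gut. Each line joins the 2 wells of 1 gut read in 1 batch, with batch 1 in blue and batch 2 in orange. All Spns2 lines go up, the Sphk1 and Sgpl1 lines go down, and the Sphk2 and S1pr1 lines go both ways. S1pr2 lines go up except in guts 8 and 9 of batch 1, and S1pr3 lines go down except in gut 1.

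The other members did not share 1 direction with Spns2. Of the 6 tested, S1pr2 rose with GDNF, and S1pr1, S1pr3, Sphk1 and Sgpl1 fell, in limma's test of the within-gut differences with Benjamini-Hochberg adjustment over 18193 genes and a threshold of 0.05. Of all genes, 18.3% rose and 13.2% fell in this test, 11.7% were higher in 9 of 9 guts and 6.14% were lower in 9 of 9. The median difference of the 6 was -1.03, against 0.01 over all genes, whose 5th to 95th percentile ran from -1.14 to 1.45. In batch 2 alone, with 4 guts, limma called 0 of all genes, and 3516 had an unadjusted p under 0.05. These sizes compare scores and not folds, and the 6 were picked as relatives of a gene with a known difference.

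**Figure D2:**
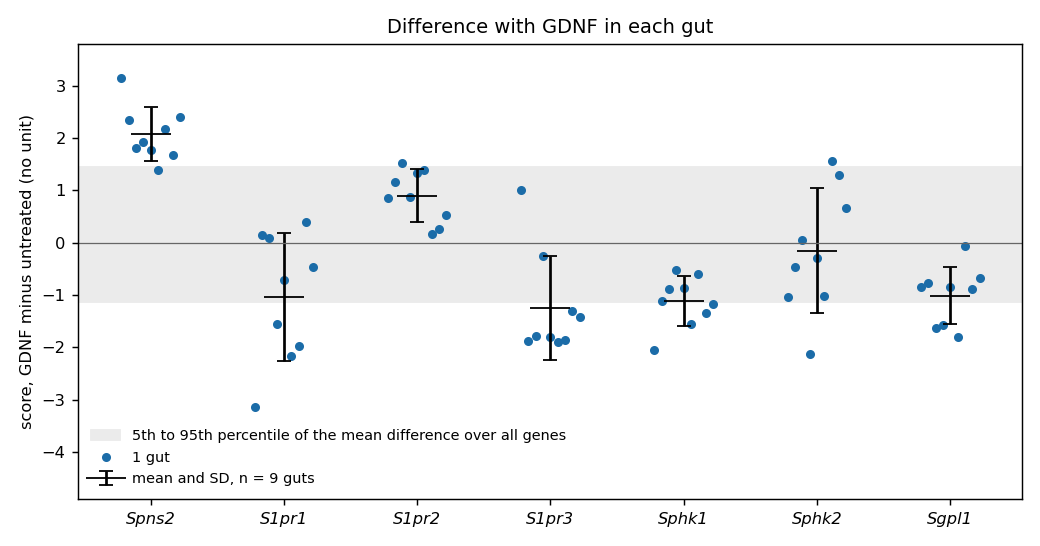
Difference in score, GDNF minus untreated, in each of the 9 guts (points), with the mean and SD (bars), for the 7 genes. The grey band is the 5th to 95th percentile of the mean difference over all genes, -1.14 to 1.45. Spns2 lies above the band, S1pr3 at -1.25 just under it, and S1pr1 and Sphk2 have the widest spread over guts.

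Sphk1, the kinase that growth factors are known to activate, fell in every gut. Its untreated RNAs had scores from -1.24 through 0.69 to 1.39 and its GDNF RNAs from -1.75 through -0.96 to 0.38. The groups overlapped, but within each gut the GDNF well was lower. The differences in guts 1 to 9 were -2.05, -1.12, -0.88, -0.52, -0.87, -1.56, -0.60, -1.34 and -1.18, with a mean of -1.12 ± 0.48 (SD, n = 9, limma adjusted p = 0.00128). Both probe sets were lower in 9 of 9 guts, with means of -1.41 (adjusted p = 9.0e-04 over probe sets) and -0.84 (adjusted p = 0.0289). The first, 1451596_a_at, had a correlation of 0.89 between batches and the second, 1420566_at, of 0.38. The gene's mean was -1.21 in batch 1 and -0.96 in batch 2.

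Sphk2, the kinase isoform known mainly from the nucleus and internal membranes, had no shared direction. Untreated RNAs ran from -0.96 through -0.28 to 1.43 and GDNF RNAs from -1.73 through 0.32 to 1.03. The GDNF well was higher in 4 guts and lower in 5, from -2.12 in gut 4 to 1.56 in gut 7. The mean difference was -0.15 ± 1.19 (SD, n = 9, limma adjusted p = 0.784), so the spread over guts was far larger than the mean. Its probe sets gave means of -0.09 and -0.21.

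Sgpl1, the lyase that ends the S1P signal inside cells, also fell in every gut. Its untreated RNAs had scores from 0.16 through 0.67 to 1.03 and its GDNF RNAs from -0.88 through -0.39 to 0.17, so the ranges met only at their edges. The differences in guts 1 to 9 were -0.84, -0.77, -1.63, -1.57, -0.85, -1.80, -0.07, -0.89 and -0.68, with a mean of -1.01 ± 0.55 (SD, n = 9, limma adjusted p = 0.0035). In gut 7 the wells were nearly equal. The probe sets differed: 1415892_at had a mean of -1.41, was lower in 9 of 9 guts (adjusted p = 0.00372) and correlated at 0.72 between batches, while 1415893_at had a mean of -0.61 (adjusted p = 0.296) and a correlation of -0.27. The gene's mean was -1.26 in batch 1 and -0.56 in batch 2.

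Among the receptors, S1pr3 fell in 8 of 9 guts. S1pr3 couples to Gi, Gq and the G12 and G13 proteins and is known from smooth muscle and heart. Its untreated RNAs had scores from -1.56 through 0.71 to 1.72 and its GDNF RNAs from -1.17 through -0.59 to -0.36. The lowest untreated RNA was that of gut 1, and there the GDNF well was higher, by 1.00. In guts 2 to 9 the differences were -1.88, -1.79, -0.25, -1.81, -1.90, -1.86, -1.30 and -1.43. The mean was -1.25 ± 0.99 (SD, n = 9, limma adjusted p = 0.00671), and -1.53 without gut 1. Its probe sets 1437173_at and 1438658_a_at had means of -1.43 and -1.46 and correlations of 0.98 and 0.87 between batches. The third, 1460661_at, had a mean of -0.84 (adjusted p = 0.0672) and a correlation of -0.43.

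S1pr1, the Gi-coupled receptor that is abundant in endothelium and needed for vessel maturation, fell on average but not in all guts. Its untreated RNAs had scores from -0.94 through 0.73 to 1.83 and its GDNF RNAs from -1.39 through -0.85 to 1.14, with wide overlap. The differences in guts 1 to 9 were -3.15, 0.15, 0.09, -1.56, -0.71, -2.16, -1.97, 0.40 and -0.47. Guts 1, 4, 5, 6 and 7, read in batch 1 only, all had lower GDNF wells. The 4 guts with arrays in batch 2 lay between -0.47 and 0.40. The mean was -1.04 ± 1.23 (SD, n = 9, limma adjusted p = 0.0381). It was -1.23 over the 8 guts of batch 1 and 0.11 over the 4 of batch 2. In guts 3, 8 and 9, read in both, the differences were -0.41, 0.00 and 0.15 in batch 1 and 0.58, 0.81 and -1.09 in batch 2. The call was lost without gut 1 (mean -0.78, adjusted p = 0.0838), and also without gut 4, 5, 6 or 7 (adjusted p = 0.0763, 0.0542, 0.0901 and 0.0873).

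S1pr2, which couples strongly to G12 and G13 and is known for restraining cell migration, was the only tested member that rose. Its untreated RNAs had scores from -1.57 through -0.03 to 0.50 and its GDNF RNAs from -0.17 through 0.36 to 1.84. The groups overlapped, while the GDNF well was higher in each gut. The differences in guts 1 to 9 were 0.85, 1.17, 1.53, 0.87, 1.33, 1.39, 0.16, 0.26 and 0.52, with a mean of 0.90 ± 0.50 (SD, n = 9, limma adjusted p = 0.00589). The batches differed in single guts: gut 3 gave 3.01 in batch 1 and 0.05 in batch 2, gut 8 gave -0.28 and 0.80, and gut 9 gave -0.16 and 1.21. Batch 1 alone had a mean of 0.90 (adjusted p = 0.0722), and without the pairing by gut the mean was 0.88 (adjusted p = 0.0524). Its probe sets had means of 0.78 and 1.01, with correlations between batches of -0.02 and 0.64.

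**Figure D3:**
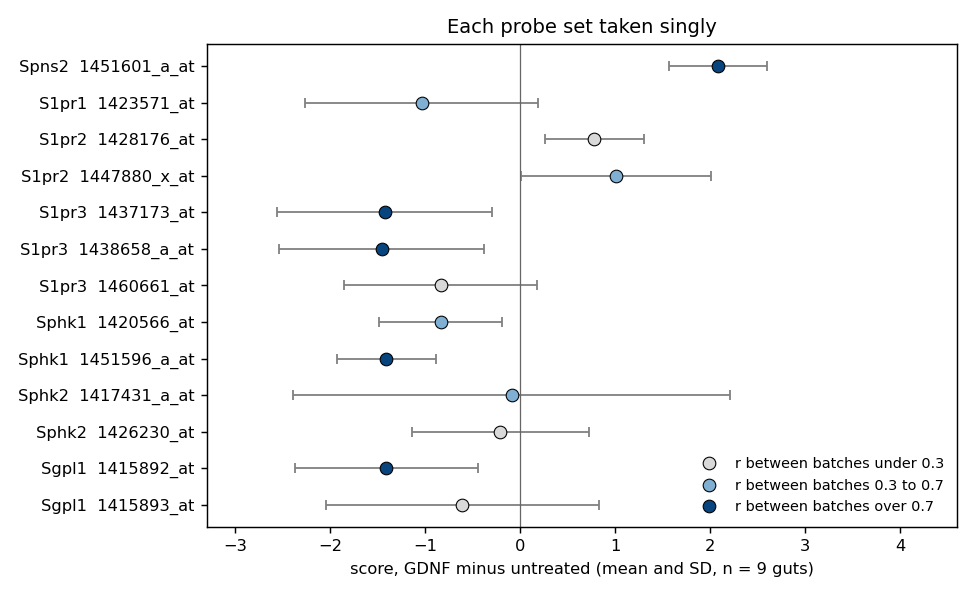
Mean difference in score, GDNF minus untreated, with SD over 9 guts, for each of the 13 probe sets on its own. Darker points had higher correlations between batches over the 7 RNAs read in both. The probe sets over 0.7 are 1 of Spns2, 2 of S1pr3, 1 of Sphk1 and 1 of Sgpl1, and the others have wider bars or smaller means in S1pr3, Sphk1 and Sgpl1.

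Guts with a larger Spns2 difference were then compared with the differences of the other members. None of the 6 relations passed an exact two-sided permutation test over the 9 guts after Benjamini-Hochberg adjustment over the 6. For S1pr3 Pearson's r was 0.66 (exact permutation p = 0.0556, adjusted p = 0.334) and Spearman's rho 0.38 (exact permutation p = 0.312, adjusted p = 0.625), and r was -0.21 without guts 1 and 6, so it rested on those guts. For Sgpl1 r was 0.50 (exact permutation p = 0.17, adjusted p = 0.471) and rho was 0.72 (exact permutation p = 0.0369, adjusted p = 0.221), with r = 0.49 without guts 1 and 6. Both of these signs mean that guts with a larger Spns2 difference had a smaller fall. The coefficients r and rho were -0.40 and -0.05 for Sphk1, -0.38 and -0.18 for S1pr1, -0.26 and -0.38 for S1pr2, and -0.05 and -0.10 for Sphk2. Without guts 1 and 6 these r were -0.05, -0.18, -0.20 and 0.08. Their exact permutation p-values lay between 0.288 and 0.912, and their adjusted p-values between 0.471 and 0.912. All share the pair of arrays behind each point. The Sgpl1 relation depended on the probe set. With only 1415892_at, its probe set with the higher correlation between batches, r was 0.01 and rho 0.05, and r was -0.48 without guts 1 and 6.

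Over single arrays, genes were also ranked by their likeness to Spns2. Of 18192 genes ranked by Pearson's r with Spns2 over the 17 ENCC arrays of batch 1, the first 5 were Ngb at 0.98, Tspan13 at 0.98, and Cmbl, Pcsk1n and Stau2 at 0.97. Ngb encodes neuroglobin, Pcsk1n an inhibitor of a prohormone convertase and Stau2 an RNA-binding protein of neuronal RNA transport. A correlation over 0.9 was held by 231 genes. S1pr2 ranked 3942 with r = 0.42, Sphk2 ranked 10338 with -0.08, S1pr3 16532 with -0.57, Sphk1 17078 with -0.63, S1pr1 17385 with -0.67, and Sgpl1 17977 with -0.79. Over the 8 ENCC arrays of batch 2, r was 0.34 for S1pr2, 0.26 for Sphk2 and -0.98 for S1pr3. There it was -0.43 for Sphk1, -0.22 for S1pr1 and -0.78 for Sgpl1, so the order of the members differed between batches. The first 5 genes had r from 0.76 (Tspan13) to 0.89 (Ngb) in batch 2. The arrays of each batch include wells with and without GDNF, so the coefficients contain the GDNF difference itself and are descriptions.

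Markers of cell types moved with GDNF at the same time. Of all genes, 18.3% rose and 13.2% fell in the same test. Of 5 neuronal marker genes, Tubb3, Ina, Stmn2 and Uchl1 rose, and the list's mean score rose by between 0.75 and 1.86 over guts, with a median of 1.39. Elavl4 did not pass (mean -0.15, limma adjusted p = 0.83). Of 6 mesenchymal markers, Pdgfrb, Col1a1, Col1a2, Twist1 and Osr1 fell, and the list's mean difference ran from -2.22 to -0.41, with a median of -0.73. Pdgfra did not pass (mean -0.12, limma adjusted p = 0.758). Of 8 endothelial markers only Pecam1 passed, upwards, and the list's difference ran from -0.22 to 0.85, with a median of 0.19. Among the 4 ENCC markers measured only Gfra1 passed, upwards, and among 6 macrophage markers Lyz2 rose and Adgre1 fell. No smooth muscle, epithelial or erythroid marker passed. In batch 2 the neuronal list scored from -1.25 to -0.08 in untreated and 0.67 to 0.85 in GDNF wells, and the mesenchymal list from 0.19 to 1.36 and from -1.30 to 0.01. A score has no zero, so it does not show which markers were absent. The part of these shifts in the differences of Spns2, S1pr2, S1pr3, Sphk1 and Sgpl1 was not tested. The hybridisation controls, bacterial and phage transcripts added to each sample, were lower in the GDNF well in 6 of 9 guts, with a mean difference of -0.72 ± 0.99 (SD, n = 9). With them as a covariate, the S1pr1 difference fitted for equal controls in both wells was -0.97 (limma adjusted p = 0.145). Of the genes named further on, S1pr5, Plpp2 and Sptssb had such fitted differences of 0.95, 0.53 and 0.78 (limma adjusted p = 0.145, 0.149 and 0.0538).

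The other genes of sphingolipid metabolism did not follow 1 direction either. Of 63 further genes listed, 58 were analysed, and 15 rose and 6 fell with GDNF, beside the 18.3% and 13.2% of all genes. Their median difference was -0.14, against 0.01 over all genes. The list was made with earlier results of these arrays known.

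Among the roles listed, the phosphatases that remove the phosphate from S1P and related lipids had the most rises, 4 of 5, where 18.3% of all genes rose. This role was singled out by these values, so its count is a description and was not tested. Sgpp2, an S1P phosphatase of the endoplasmic reticulum, rose by 1.96 ± 0.88 (SD, n = 9, limma adjusted p = 2.0e-04) and was higher in 9 of 9 guts. Its relative Sgpp1 rose by 0.95 ± 0.57 (limma adjusted p = 0.00581), also in 9 of 9, though 2 of its 3 probe sets did not pass singly (adjusted p = 0.0696 and 0.058). The lipid phosphate phosphatases Plpp1 and Plpp2 rose by 1.04 ± 0.61 and 0.71 ± 0.43 (limma adjusted p = 0.00379 and 0.0177), each in 8 of 9 guts. For Plpp2 the probe set 1420910_at alone had a mean of 0.07, and the gene did not pass in batch 1 alone (mean 0.63, adjusted p = 0.0614). Plpp3 had a mean of -0.13 ± 0.52 (limma adjusted p = 0.712). Aldh3a2, which oxidises the fatty aldehyde that the lyase releases, rose by 1.62 ± 0.72 (limma adjusted p = 3.3e-04), the opposite direction to Sgpl1.

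Of the 4 other transporters linked to S1P export, 2 fell, where 13.2% of all genes fell. Abcc1 and Abcg2, ABC transporters with many substrates, had means of -1.25 ± 0.73 and -1.52 ± 0.86 (SD, n = 9, limma adjusted p = 0.00199 and 0.00102) and were lower in 9 of 9 guts. Mfsd2b, the S1P exporter known from red blood cells and platelets, had a mean of -0.49 ± 0.84 (limma adjusted p = 0.203). Abca1, known for cholesterol export, had a mean of -0.26 ± 0.96 (limma adjusted p = 0.565). The other Spinster family genes, named here after their values were seen, had means of 0.61 (Spns1, limma adjusted p = 0.0711) and 0.97 (Spns3, limma adjusted p = 0.14).

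The remaining receptors gave less. S1pr4, known from lymphoid cells, had a mean of -0.13 ± 0.85 (SD, n = 9, limma adjusted p = 0.771). S1pr5, known from oligodendrocytes and natural killer cells, rose by 0.96 ± 1.18 in 7 of 9 guts (limma adjusted p = 0.0472). That call was lost when gut 1, 2, 4, 5, 7, 8 or 9 was left out, with means from 0.74 to 1.02 and adjusted p-values from 0.0621 to 0.116, and batch 2 alone had a mean of -0.05. Of 7 genes for G protein subunits that these receptors use, Gnai1 rose by 1.75 ± 0.37 (limma adjusted p = 6.5e-05) and Gnai2 fell, with a mean of -1.05 ± 0.50 (limma adjusted p = 0.00223), each in 9 of 9 guts. Lpar6, a receptor for the related lipid lysophosphatidate, fell with a mean of -1.58 ± 0.67 (limma adjusted p = 3.3e-04).

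Upstream of sphingosine, the ceramidases were mixed. Asah1, the lysosomal acid ceramidase, fell with a mean of -1.42 ± 0.57 (SD, n = 9, limma adjusted p = 4.0e-04) in 9 of 9 guts, and the alkaline ceramidase Acer3 rose by 0.84 ± 0.59 (limma adjusted p = 0.0129) in 8 of 9. Of the 4 probe sets of Acer3, 1459771_x_at went the other way, with a negative mean. Acer1, Acer2 and Asah2 had means of -0.18, -0.16 and -0.07 (limma adjusted p = 0.728, 0.68 and 0.858). For Acer2 the probe set 1421496_at alone had a mean of -0.97 (adjusted p = 0.0205 over probe sets). Sptssa and Sptssb, small subunits of the serine palmitoyltransferase that starts sphingolipid synthesis, rose by 1.35 ± 0.73 and 0.89 ± 0.49 (limma adjusted p = 0.00123 and 0.00605). The ceramide synthase Cers4 rose by 1.40 ± 0.61 and the ceramide kinase Cerk by 1.34 ± 0.78 (limma adjusted p = 5.3e-04 and 0.00165). All 4 of these were higher in 9 of 9 guts.

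**Figure D4:**
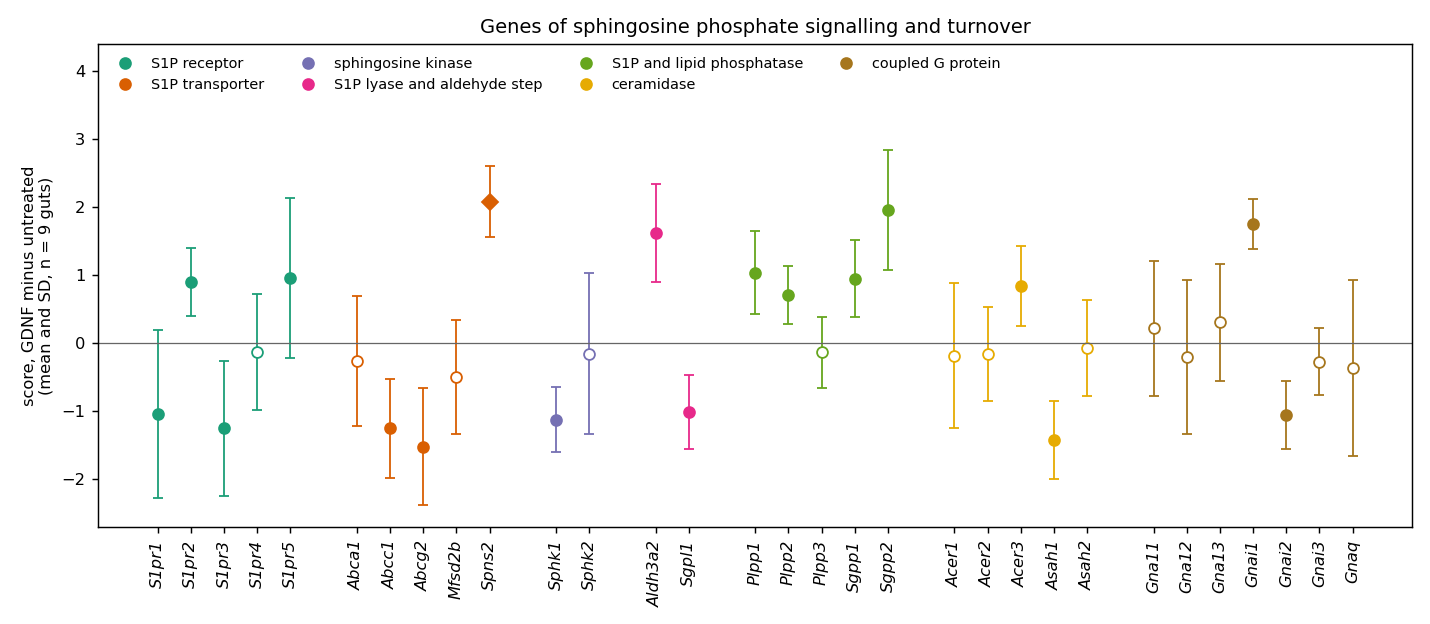
Mean difference in score, GDNF minus untreated, with SD over 9 guts, for genes of S1P signalling and turnover, coloured by role. Filled circles passed limma's test at an adjusted p of 0.05, open circles did not, and Spns2 (diamond) was not tested. Among the phosphatases 4 of 5 are filled and above 0, while the transporters Abcc1 and Abcg2 are filled and below 0. Of all genes, 18.3% rose and 13.2% fell.

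Whole gut was compared with the ENCC wells of guts 2, 3, 8 and 9, which were read in the same batch. For Spns2 the 8 whole guts scored from -1.19 through a median of -0.01 to 0.50, the untreated wells -2.21, -0.71, -0.97 and -1.12 in that order of guts, and the GDNF wells 0.14, 1.40, 0.36 and 1.88. The mean of whole gut, -0.08 ± 0.54 (SD, n = 8), lay between the others: untreated minus whole gut was -1.17 and GDNF minus whole gut was 1.03. Whole gut overlapped with both sets of wells, with the untreated wells only through whole gut 4, at -1.19. No test was made, because these wells belong to the contrast that chose the gene.

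For the other members, limma was fitted over the 3 groups of batch 2, in which 32.6% of all genes passed between untreated ENCCs and whole gut and 41.0% between GDNF-treated ENCCs and whole gut. In these scores whole guts varied less than ENCCs, with a median SD over genes of 0.15 against 0.75 for untreated and 0.71 for GDNF wells. The fit was therefore repeated with a spread estimated separately in ENCCs and whole gut, and both adjusted p-values are given. The scores had been centred and scaled on ENCC arrays, as described under the processing. These SDs thus do not show whether whole guts were the more uniform samples. Both comparisons share the whole guts, so they are not independent of each other. Where wells are said below to lie above or below every whole gut, the share of all genes that do so was not counted. Such a separation is therefore a description only.

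Sphk1 was higher in untreated ENCCs than in whole gut. Whole guts scored from -1.32 through -1.24 to -1.01, and the 4 untreated wells scored 0.20, -0.62, 1.61 and 1.10, all above every whole gut. The difference was 1.78 (limma adjusted p = 3.8e-04, and 0.0041 with separate spreads). The GDNF wells, at -0.92, -0.70, 0.03 and 0.06, were also above every whole gut. Their difference was 0.83 (limma adjusted p = 0.0484, and 0.128 with separate spreads), and this call was lost when any single whole gut, or the wells of gut 8 or gut 9, were left out (adjusted p from 0.0581 to 0.141).

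S1pr2 was higher in GDNF-treated ENCCs than in whole gut. Whole guts scored from -1.31 through -1.02 to -0.69, and the GDNF wells 1.12, -0.59, 0.65 and 0.66. The difference was 1.46 (limma adjusted p = 2.9e-04, and 0.00558 with separate spreads). The untreated wells, at -0.04, -0.64, -0.15 and -0.55, were also above every whole gut, by 0.65 on average (limma adjusted p = 0.0772, and 0.235 with separate spreads). The untreated difference passed without the well of gut 3 (0.75, limma adjusted p = 0.0469), with only the 2 groups compared in the fit (limma adjusted p = 0.0091) and with the untreated RNAs of both batches (0.84, limma adjusted p = 0.00984). Its probe sets gave 1.07 and 0.23, neither past the threshold singly.

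Sgpl1 was lower in GDNF-treated ENCCs than in whole gut. Whole guts scored from -0.62 through 1.09 to 1.42, with 7 of the 8 at or above 0.77. The GDNF wells scored 0.23, -0.93, 0.33 and -0.39, a difference of -1.11 (limma adjusted p = 0.0171, and 0.0451 with separate spreads). Without the well of gut 3 the difference was -0.86 (limma adjusted p = 0.0776). The untreated wells scored 1.00, 0.06, 0.55 and -0.13, a difference of -0.55 (limma adjusted p = 0.252, and 0.378 with separate spreads). Without whole gut 4, at -0.62, the difference was -1.33 for GDNF wells (limma adjusted p = 0.00142) and -0.77 for untreated wells (limma adjusted p = 0.0542). The probe sets differed here too. For GDNF wells 1415892_at gave -1.72 (adjusted p = 0.00375 over probe sets) and 1415893_at gave -0.50 (adjusted p = 0.431), and for untreated wells they gave 0.06 and -1.17, neither past the threshold.

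S1pr1 had lower mean scores in both kinds of well than in whole gut, but the calls depended on the spread used. Whole guts scored from 1.12 through 1.35 to 1.54. The untreated wells scored 0.23, -1.18, 0.72 and 0.79 and the GDNF wells 0.37, -0.60, 1.53 and -0.30, so that all but 1 well lay below every whole gut. Untreated minus whole gut was -1.20 (limma adjusted p = 0.017, and 0.0519 with separate spreads) and GDNF minus whole gut was -1.09 (limma adjusted p = 0.0225, and 0.0576). Without the untreated well of gut 3 the first was -0.76 (adjusted p = 0.0794), and without the GDNF well of gut 3 or gut 9 the second was -0.81 or -0.91 (adjusted p = 0.105 and 0.0821). The 8 endothelial markers had a mean score of 1.96 to 2.07 in whole guts, -0.78 to 0.51 in untreated wells and -0.61 to 0.31 in GDNF wells, and their part in the S1pr1 values was not tested.

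For Sphk2 and S1pr3 no call of the gene held under both spreads. Sphk2 scored from 0.51 through 1.02 to 1.33 in whole guts, -0.96, 0.10, -0.39 and 0.14 in untreated wells and -1.43, -1.01, 1.37 and 0.74 in GDNF wells. Every untreated well was below every whole gut, with a difference of -1.20 (limma adjusted p = 0.031, and 0.0654 with separate spreads), and the GDNF wells lay on both sides, with a difference of -1.0 (limma adjusted p = 0.0585, and 0.1). The untreated call was also lost without whole gut 2, 3, 6 or 8 or the well of gut 2 or gut 8, with differences from -0.97 to -1.17 and adjusted p from 0.0501 to 0.108. The GDNF difference was -0.55 without gut 2 (adjusted p = 0.29), -0.69 without gut 3 (0.224), -1.48 without gut 8 (0.00451) and -1.27 without gut 9 (0.0272). Of its probe sets, 1417431_a_at passed singly in both comparisons (-1.76 and -1.49, adjusted p = 0.00527 and 0.0121) and 1426230_at in neither (-0.63 and -0.51).

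S1pr3 scored from -0.07 through 0.15 to 0.35 in whole guts. Its untreated wells, at 1.72, 0.55, 0.34 and 0.75, differed by 0.69 (limma adjusted p = 0.0582, and 0.207 with separate spreads), and its GDNF wells, at -0.17, -0.81, -0.16 and -1.21, by -0.74 (limma adjusted p = 0.0348, and 0.145). All GDNF wells were below every whole gut. The untreated difference passed for 1437173_at (0.95, adjusted p = 0.0267 over probe sets) and 1438658_a_at (0.97, adjusted p = 0.0337) but was 0.14 for 1460661_at. It also passed with only the 2 groups in the fit (limma adjusted p = 0.0232) and without the well of gut 3 or gut 8 (0.78 and 0.85, limma adjusted p = 0.0349 and 0.0306). It was 0.40 without the well of gut 2 (limma adjusted p = 0.254) and 0.43 with the untreated RNAs of both batches (limma adjusted p = 0.277). The GDNF call was lost without the well of gut 3 or gut 9 (-0.66 and -0.53, limma adjusted p = 0.0837 and 0.141) and without whole gut 1, 2, 3, 5 or 7 (adjusted p from 0.0512 to 0.0601). For S1pr3 as for Spns2, whole gut thus lay between the means of the wells, with Spns2 in the opposite order.

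**Figure D5:**
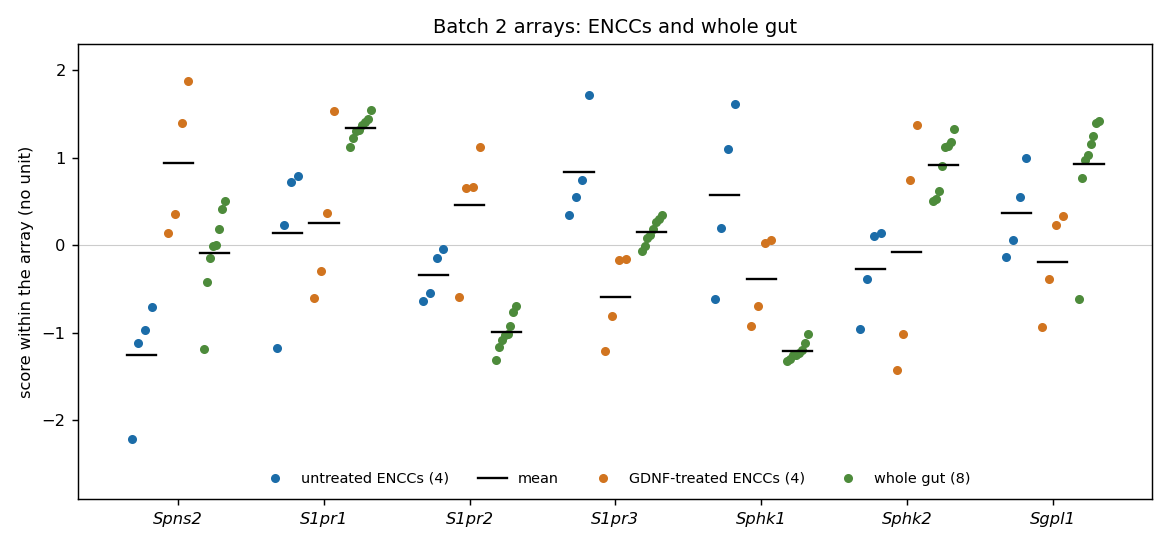
Score within the array (no unit) of each gene on the 16 arrays of batch 2, with 4 untreated ENCC wells in blue, 4 GDNF wells in orange and 8 whole guts in green. Points are single arrays and black lines are means. The mean of the whole guts lies between the means of the wells for Spns2 and S1pr3, all whole guts lie below all wells for Sphk1 and S1pr2, and 1 whole gut stands apart at -0.62 for Sgpl1. The share of all genes with whole guts and wells fully apart was not counted.

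In the wider list, 16 of the 58 further genes were higher and 13 were lower in untreated ENCCs than in whole gut, beside 14.9% and 17.7% of all genes. Sgpp2 was lower, by a difference of -1.86 (limma adjusted p = 1.6e-05, and 0.00133 with separate spreads), and the mean of its GDNF wells was 0.12 above that of whole gut. Abcc1 and Asah1 were higher in untreated ENCCs, by 2.12 (limma adjusted p = 8.6e-06, and 5.9e-04) and 1.65 (limma adjusted p = 0.00174, and 0.00912). Cers4 was higher by 1.51 (limma adjusted p = 3.6e-04, and 0.00783), and Sptssb was lower with a difference of -1.81 (limma adjusted p = 2.6e-04, and 0.00339). Cultured and sorted cells were set against dissected tissue here, so culture, sorting, reporter genotype and cell type cannot be told apart.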

How the data were processed

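Per the labels, biotin-labelled RNA of ENCCs and whole guts was hybridised to Affymetrix arrays, and the submitters' processing notes name RMA with no version. The deposited values are scores: the 45101 sorted values of each array equal normal quantiles of rank within 5.0e-06, from -4.084 to 4.084 with median 0. Means of probe sets over the 7 RNAs read in both batches had an SD of 0.0585 (batch 1) or 0.117 (batch 2), against 0.378 for independent arrays, which shows centring on those arrays. The SD of a probe set over the same arrays of batch 1 had a 5th to 95th percentile of 0.974 to 1.233, against 0.485 to 1.499 over the 10 other arrays of that batch, so the spread was made nearly equal too. The size of a score difference is thus no measure of the size of a response. The scores hold no level, fold or brightness, and dim probe sets could not be filtered out. These steps were read from the values.

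Symbols came from the platform annotation: 34958 probe sets had 1 symbol, 932 several and 9211 none, and 13 named control probe sets were left out. A gene's score is the mean of its probe sets. The GDNF comparison used limma 3.58.1 in R 4.3.3 (lmFit and eBayes) on within-gut, within-batch differences, and guts in both batches entered as the mean. The pairing by gut comes from the labels' protocol, which divides 1 gut over 2 wells. Whole gut was compared within batch 2. P-values were adjusted by Benjamini-Hochberg over all 18193 genes at 0.05. The scripts were tested on simulated data. All deposited columns were mapped to samples.

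The members and lists were chosen with earlier results of these data known. Named genes are the 7 members, the S1P receptors, transporters, phosphatases and ceramidases measured, up to the 4 largest per role of the others that passed with 1 sign in 9 of 9 guts, and the 5 most like Spns2. Alternatives were other probe set rules, single batches, leaving out each sample, no pairing, control scores as covariate, robust eBayes, sign changes, and a separate spread for whole gut, the last added after the data were seen. The number of arrays limits the precision.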

Additional observations from a re-analysis of the deposited data

Results flagged for a closer look

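One value stood far from the rest of its group. Whole gut replicate 4 scored -0.62 for Sgpl1, while the other 7 whole guts scored from 0.77 to 1.42. The gap to the nearest was 0.68 of the whole range, above Dixon's critical value for 8 samples. Members were checked in 42 groups of 4 to 10 samples and this was the only 1 past the value, where chance flags about 1 in 20 groups.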

How the results depend on the processing

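Limits: scores carry no abundance, probe sets of 1 gene disagreed in S1pr3 and Sgpl1, and batch 2 holds 4 guts. With each probe set taken singly, 10521 of 34945 probe sets passed for GDNF, 9455 for untreated ENCCs against whole gut and 12971 for GDNF-treated ENCCs against whole gut, against 5725, 5935 and 7468 genes. In batch 2 alone limma called 0 genes for GDNF, with 3516 at an unadjusted p under 0.05, so every member lost its call there, and S1pr1 turned to 0.11 and S1pr5 to -0.05. With separate spreads, 3690 genes passed for untreated ENCCs and 5750 for GDNF-treated ENCCs against whole gut. Leaving out 1 gut gave 5029 to 5909 genes for GDNF. Leaving out 1 sample gave 5240 to 6612 for untreated and 6916 to 7385 for GDNF-treated ENCCs against whole gut. Without the pairing by gut (no replicate block), 4993 genes passed for GDNF, and of the 6 tested members S1pr2 lost its call. The probe set 1459771_x_at of Acer3 gave -0.74 for GDNF, and 1420910_at of Plpp2 gave 1.28 for untreated ENCCs against whole gut. No relation to Spns2 passed in batch 1 alone or with the most reproducible probe set. In exact sign change tests of the GDNF differences over 9 guts, unadjusted p was 0.00391, the smallest possible, for S1pr2, Sphk1 and Sgpl1, 0.0117 for S1pr3, 0.043 for S1pr1 and 0.707 for Sphk2. With the untreated RNAs of both batches, 8525 genes passed against whole gut, and with only those 2 groups in the fit 7752. Over all named genes, 1103 alternative values kept their sign and side of the threshold, 112 lost the threshold, 31 passed it and 4 turned sign with a call in 1 of the settings. A further 27 values, of 12 genes, turned sign while past the threshold in neither setting, among them Sphk2 for GDNF (0.20 in batch 2 alone, 0.10 without gut 4 and 0.19 with the control covariate). The cause of these changes was not tested.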
